A study of Mus musculus with 4 samples.

Results

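The genes described here are 10 factors that write, read or recruit methylation of lysine 9 on histone H3 (H3K9), chosen by name. They are the methyltransferases Setdb1, Suv39h1, Suv39h2, Ehmt1 and Ehmt2, the corepressor Trim28, the HP1 proteins Cbx1, Cbx3 and Cbx5, and the chromatin remodeller Atrx. These factors and the gene lists used below were chosen with earlier results of these data known. The symbols of the 10 factors were looked up among the 14533 genes with deposited values, where all 10 had a row. The RNA came from mouse embryonic stem cells (ESCs) in 2 culture conditions, with 2 libraries in each. Serum ESCs had been kept in medium with serum and 2i ESCs in medium with 2 kinase inhibitors, which block MEK and GSK3, each for over 20 days. The sample labels place the sorted cells in late G1-phase, which ends with the start of DNA synthesis, whereas the text for the whole series speaks of early G1-phase, and the cell line of these libraries is not named in the labels. The replicates are called biological, but nothing says that they came from separate cultures, so the spread between them may be partly technical. The serum and 2i groups differ in the whole medium, so that an effect of the inhibitors cannot be told apart from one of serum.

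Methylated H3K9 is the hallmark of silent heterochromatin. Setdb1 places it at retroviruses and imprinted regions after Trim28 (also called KAP1) has been recruited there by zinc finger proteins with a KRAB domain, Suv39h1 and Suv39h2 place it at the repeats around centromeres, and Ehmt1 and Ehmt2 (GLP and G9a) work as a heterodimer on dimethylation of silent genes. The HP1 proteins bind the mark through their chromodomain, and Atrx deposits the histone variant H3.3 in heterochromatin together with Daxx. In ESCs, loss of Setdb1 or Trim28 releases retroviruses, and loss of Ehmt2 or Setdb1 releases germline genes.

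The HP1 proteins are encoded by 3 related genes, and reads of 43 bases had to be assigned among them and their processed copies. Their coding sequences are alike in 69.5% of aligned bases between Cbx1 and Cbx3, in 67.0% between Cbx1 and Cbx5 and in 64.5% between Cbx3 and Cbx5. The stretch of 60 coding bases in which the 3 genes are most alike lies in the chromodomain and is shown because it is where a read could most easily be misplaced. Capitals mark the 19 positions at which the 3 genes are not all the same, read from the GENCODE vM1 transcripts on mm9 (NCBIM37):
Cbx1: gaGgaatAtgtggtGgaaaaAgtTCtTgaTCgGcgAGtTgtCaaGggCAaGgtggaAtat
Cbx3: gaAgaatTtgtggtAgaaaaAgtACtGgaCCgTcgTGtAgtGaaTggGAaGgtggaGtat
Cbx5: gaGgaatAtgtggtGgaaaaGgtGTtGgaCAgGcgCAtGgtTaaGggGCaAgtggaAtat
No run of 43 bases is shared by any pair of the 3 genes. The Cbx3 stretch is, however, found whole in 2 other annotated genes, Gm6984 and Gm10068, and only 53.1% of the 43-base runs of Cbx3 occur in no other gene. The values of Cbx3 are therefore uncertain by the reads that such copies may take or give. For the other 9 factors between 90.2% and 100% of the 43-base runs were their own.

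Promoters were read for the genes whose values are the most apart between the groups (Suv39h2 and Cbx1), for the factor with the lowest fold change (Ehmt2) and for Cbx3, which holds a motif of E2F, the transcription factor that RB proteins restrain in G1-phase and with which the study is concerned. Each window runs from 250 bases before to 50 after an annotated start (RefSeq, GRCm38.p6, a later build than that of the counts), 5′ to 3′ on the gene's strand, and of the 2 windows held for Cbx3 and for Ehmt2 the upstream one is shown. Capitals mark 3 kinds of motif, searched on both strands: the GC box GGGCGG, the CCAAT box, and the E2F octamers TTTCGCGC, TTTGGCGC, TTTCCCGC and TTTGCCGC. The motifs did not overlap within these windows.
Suv39h2 (chr2:3474937-3475236, minus strand): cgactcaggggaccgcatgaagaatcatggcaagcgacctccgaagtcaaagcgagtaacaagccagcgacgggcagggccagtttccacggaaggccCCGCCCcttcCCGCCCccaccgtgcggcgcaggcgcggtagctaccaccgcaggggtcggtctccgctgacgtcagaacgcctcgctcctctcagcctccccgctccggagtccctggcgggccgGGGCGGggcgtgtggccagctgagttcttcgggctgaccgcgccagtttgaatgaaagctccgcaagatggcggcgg
Cbx1 (chr11:96788885-96789184, plus strand): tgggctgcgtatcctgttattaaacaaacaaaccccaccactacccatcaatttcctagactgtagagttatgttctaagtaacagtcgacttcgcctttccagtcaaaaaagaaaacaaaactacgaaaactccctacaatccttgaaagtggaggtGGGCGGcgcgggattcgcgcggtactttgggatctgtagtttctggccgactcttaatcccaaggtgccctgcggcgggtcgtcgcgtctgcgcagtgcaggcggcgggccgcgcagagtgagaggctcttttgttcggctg
Cbx3 (chr6:51470366-51470665, plus strand): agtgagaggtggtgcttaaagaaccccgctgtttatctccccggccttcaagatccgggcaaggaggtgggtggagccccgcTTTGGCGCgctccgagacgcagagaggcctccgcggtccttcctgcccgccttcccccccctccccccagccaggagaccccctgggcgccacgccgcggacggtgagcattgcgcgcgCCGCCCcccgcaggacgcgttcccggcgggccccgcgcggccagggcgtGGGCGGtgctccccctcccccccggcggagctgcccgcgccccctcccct
Ehmt2 (chr17:34898224-34898523, plus strand): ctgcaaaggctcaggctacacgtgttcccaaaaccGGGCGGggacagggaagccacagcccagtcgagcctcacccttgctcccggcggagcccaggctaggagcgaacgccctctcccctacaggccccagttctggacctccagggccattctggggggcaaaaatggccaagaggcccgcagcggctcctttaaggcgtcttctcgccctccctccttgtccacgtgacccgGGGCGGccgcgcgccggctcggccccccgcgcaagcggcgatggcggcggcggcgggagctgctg
Over all 14 windows held for the 10 factors, an E2F octamer was found for Cbx3 and Suv39h1, against 2.26% of the 32851 promoter windows in the table. The GC box was found for 9 of the 10 factors (35.7% of windows) and the CCAAT box for Atrx, Cbx5, Setdb1 and Suv39h1 (37.4% of windows). A factor with several windows has more chances to hold a motif than a window has, and a match of letters is no evidence of binding.

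The 4 libraries held between 18939401 and 26570098 whole reads, the most in serum replicate 1, where 1 read is worth close to 1 normalized count, so that its reads and its normalized counts nearly coincide. Of these reads protein-coding genes took 46.9% (replicate 1) and 76.3% (replicate 2) in serum, against 57.8% and 66.3% in 2i. The 10 genes with the most reads in each library took 50.6% and 17.5% in serum, against 34.7% and 25.5% in 2i. The 10 factors together took 0.297% and 0.444% of the protein-coding reads in serum, against 0.231% and 0.304% in 2i. The ESC markers (Pou5f1, Nanog, Sox2, Esrrb, Klf4 and Zfp42) were all present, and their summed normalized counts overlapped between the groups (41076 and 50170.2 in serum, 42279 and 54696 in 2i). Of the 6, 2 were lower in both serum libraries than in both 2i libraries (19.4% of all genes) and 0 were higher. These 2 were Nanog (9449 and 10040 in serum, 13612 and 11892 in 2i) and Klf4 (1127 and 1880 in serum, 3023 and 1974 in 2i). Of 7 primitive endoderm markers 4 had a row in the table, with sums of 72.0 and 109 in serum, against 332 and 256 in 2i, and of 7 fibroblast markers 2 had a row, with sums of 230.1 and 193 in serum, against 199 and 58.2 in 2i. Sox7, Dab2 and Foxa2 of the former and Col1a2, Col3a1, Postn, Dcn and Lum of the latter had no row. Of the fibroblast markers, Thy1 was higher in both serum libraries (173 and 185, against 131 and 7.76 in 2i), while Col1a1 overlapped. The sum of the endoderm markers was lower in both serum libraries. Of these markers, Gata6 and Gata4 entered the test, and both reached the minimum mean of 50 in 2i alone. Their means were 10.8 and 27.9 in serum, against 57.2 and 160 in 2i. The minimum itself thus fixed or favoured their direction, and the lower sum cannot be read as a result. The part of the endoderm markers in the differences described below was not tested.

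The question was whether the H3K9 silencing factors are expressed differently in serum and 2i ESCs. In normalized counts (gene counts divided by a size factor for each library), 7 of the 10 factors were higher in both serum libraries than in both 2i libraries: Suv39h1, Suv39h2, Ehmt1, Cbx1, Cbx3, Cbx5 and Atrx. This held for 20.5% of the 13005 genes tested. For 0 of the 10 were both serum libraries below both 2i libraries (19.4% of all genes), and for Setdb1, Ehmt2 and Trim28 the groups overlapped. The log2 fold change, serum over 2i, had a median of 0.79 over the 10 factors and of 0.0047 over all genes tested, and was above 0 for 8 factors (50.3% of all genes). No factor passed the test: in limma on log2(normalized count + 1), the Benjamini-Hochberg adjusted p-values of the 10 lay between 0.753 and 0.985, and 0 of 10 were called, as were 0 of 13005 genes as higher in serum and 2 (0.0154%) as higher in 2i. The unadjusted p-value was under 0.05 for Suv39h2 and Cbx1, against 2.97% of all genes on the serum side. On whole reads, 0 of 10 were called by edgeR and by DESeq2 as well. At an unadjusted p-value under 0.05 were 1 factor in edgeR (2.24% of all genes on the serum side) and 4 in DESeq2 (5.37%). In a simulation of these 4 libraries with the common biological coefficient of variation estimated here (0.668), 0% of genes changed 4-fold were called, whereas at a coefficient of 0.1 the share was 45.5% for 2-fold and 100% for 4-fold changes. Differences of the size measured for these factors were thus not detectable at the common spread, which is that of all genes and not of each factor. In bulk RNA, a lower level in each cell and fewer cells that express a gene cannot be told apart.

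**Figure D1:**
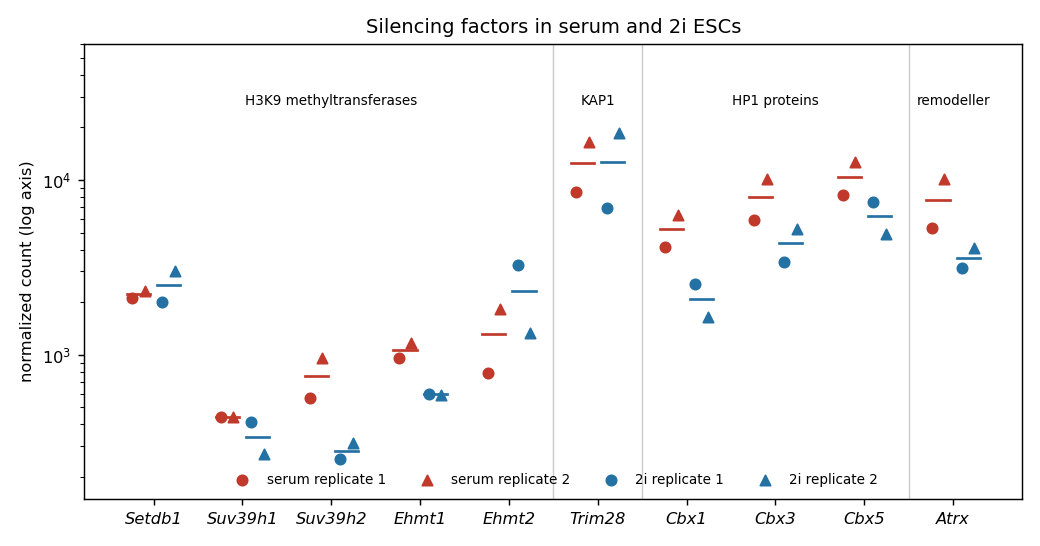
Normalized counts of the 10 silencing factors on a log axis, grouped by role. Each point is 1 library (red, serum; blue, 2i; circles, replicate 1; triangles, replicate 2) and each bar is the mean of 2. The serum points lie above both 2i points for 7 genes and overlap with them for Setdb1, Ehmt2 and Trim28.

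Among the methyltransferases, Suv39h2 (ENSMUSG00000026646, mm9 chr2:3373087-3392303, minus strand), which trimethylates H3K9 at pericentromeric repeats, was furthest apart. Its serum libraries held 564 and 958 normalized counts and its 2i libraries 252 and 311. Both serum values exceeded both 2i values, and the mean of 761 ± 279 (SD, n = 2) in serum was 2.70 times that of 282 ± 41.8 (SD, n = 2) in 2i. The log2 fold change was 1.39 with a standard error of 0.49 (95% confidence interval 0.22 to 2.56; adjusted p = 0.753 by limma). Of its exon bases, 357 overlap with Dclre1c, a DNA repair gene on the other strand that had 304 and 328 normalized counts in serum, against 316 and 235 in 2i, and reads in the overlap cannot be divided with certainty.

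Its close relative Suv39h1 (ENSMUSG00000039231, chrX:7638297-7651886, minus strand) had 442 and 441 normalized counts in serum, against 411 and 271 in 2i. The serum libraries were nearly equal, and the gap to the nearer 2i library was small against the gap between the 2i libraries. Its log2 fold change was 0.40 with a standard error of 0.47 (95% confidence interval -0.72 to 1.53; adjusted p = 0.845 by limma). Its exons share 596 bases with Gm14820, a transcript on the other strand, which had 217 and 91.4 normalized counts in serum, against 75.8 and 432 in 2i. The 2i library with the lower Suv39h1 value is the one with the higher Gm14820 value. The serum libraries, however, differed for Gm14820 and were nearly equal for Suv39h1. Whether reads of the overlap passed between these genes was not tested. The ratio of Suv39h2 to Suv39h1, in normalized counts per kilobase of exon, was 1.52 and 2.60 in serum, against 0.733 and 1.37 in 2i. This ratio, like the others below, was formed after the values had been seen and is given with no test.

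The G9a and GLP pair had fold changes of opposite sign, neither of which passed the test. Ehmt1 (ENSMUSG00000036893, chr2:24646289-24775129, minus strand), which encodes GLP, had 958 and 1172 normalized counts in serum, against 599 and 588 in 2i. The replicates differed by 1.22-fold in serum and 1.02-fold in 2i, the serum mean was 1.80-fold the 2i mean, and the log2 fold change was 0.84 with a standard error of 0.42 (95% confidence interval -0.18 to 1.85; adjusted p = 0.753 by limma). Ehmt2 (ENSMUSG00000013787, chr17:35035414-35050997, plus strand), which encodes G9a, had 786 and 1841 normalized counts in serum, against 3275 and 1337 in 2i. The lowest value came from serum replicate 1 and the highest from 2i replicate 1, while the replicate 2 libraries stood in the other order. The log2 fold change was -0.80 with a standard error of 0.65 (95% confidence interval -2.36 to 0.76; adjusted p = 0.774 by limma). It was -1.44 without 2i replicate 2 and -1.41 without serum replicate 2, but -0.15 without 2i replicate 1 and -0.18 without serum replicate 1. Per kilobase, the ratio of Ehmt1 to Ehmt2 was 0.940 and 0.491 in serum, against 0.141 and 0.339 in 2i, so that it was higher in both serum libraries, although Ehmt2 itself overlapped.

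Setdb1 (ENSMUSG00000015697, chr3:95127447-95161124, minus strand), the enzyme that works with Trim28, had 2109 and 2324 normalized counts in serum, against 2019 and 3025.5 in 2i. Both serum values lay between the 2i values, and the log2 fold change was -0.16 with a standard error of 0.45 (95% confidence interval -1.25 to 0.93; adjusted p = 0.941 by limma). It turned to 0.13 when 2i replicate 2 was left out. Summed per kilobase, the 5 methyltransferases came to 798 and 1140.3 in serum, against 1111 and 889.6 in 2i, which overlap.

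Trim28 (ENSMUSG00000005566, chr7:13609501-13616384, plus strand), the scaffold that brings Setdb1 and HP1 to KRAB zinc finger proteins, had 8592 and 16480.1 normalized counts in serum, against 6879.7 and 18544 in 2i. Its libraries differed more within a group (1.92-fold in serum and 2.70-fold in 2i) than the group means did (0.986-fold), with replicate 2 the higher of both pairs. The log2 fold change was 0.08 with a standard error of 0.70 (95% confidence interval -1.61 to 1.76; adjusted p = 0.985), an interval that includes a 2-fold difference either way. Its sign was not fixed: it ran from -0.64 without 2i replicate 1 to 0.79 without 2i replicate 2. It was -0.05 in edgeR and -0.04 in DESeq2, and -0.07 under upper quartile scaling, which moved the median of all genes to -0.14.

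Of the HP1 genes, Cbx1 (HP1 beta; ENSMUSG00000018666, chr11:96650441-96669954, plus strand) was the one furthest apart. It had 4138 and 6331 normalized counts in serum, against 2551 and 1637 in 2i. The groups did not overlap, the serum mean of 5234 ± 1550.3 (SD, n = 2) was 2.50-fold the 2i mean of 2094 ± 646 (SD, n = 2), and the log2 fold change was 1.32 with a standard error of 0.50 (95% confidence interval 0.12 to 2.52; adjusted p = 0.753 by limma). Cbx3 (HP1 gamma; ENSMUSG00000029836, chr6:51420359-51433703, plus strand) had 5874 and 10169 normalized counts in serum, against 3412 and 5276 in 2i. The lower serum library was only slightly above the higher 2i library, and the log2 fold change was 0.86 with a standard error of 0.54 (adjusted p = 0.756). The copies that share the sequence shown above had few reads: Gm6984 had 0 and 75.8 normalized counts in serum and 0 in both 2i libraries, and Gm10068 had 50.03 and 30.1 in serum, against 43.6 and 5.82 in 2i. Cbx5 (HP1 alpha; ENSMUSG00000009575, chr15:103021975-103070247, minus strand) had 8196 and 12608 normalized counts in serum, against 7485 and 4903 in 2i. Serum replicate 1 and 2i replicate 1 were close for this gene, and the log2 fold change was 0.75 with a standard error of 0.54 (adjusted p = 0.763). Summed per kilobase, HP1 transcripts came to 3698 and 6031 in serum, against 2485 and 2562 in 2i. Cbx3 made up 49.2% and 52.2% of this sum in serum, against 42.5% and 63.8% in 2i, which overlap, while the share of Cbx1 was 26.2% and 24.6% in serum and 24.02% and 15.0% in 2i, higher in both serum libraries but only slightly above that of 2i replicate 1.

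Atrx (ENSMUSG00000031229, chrX:102992954-103124736, minus strand) had 5301 and 10108 normalized counts in serum, against 3138 and 4070.2 in 2i. The groups were apart, but the serum replicates differed by 1.91-fold, nearly as much as the 2.14-fold between the group means. The log2 fold change was 1.03 with a standard error of 0.53 (95% confidence interval -0.25 to 2.32; adjusted p = 0.753 by limma).

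**Figure D2:**
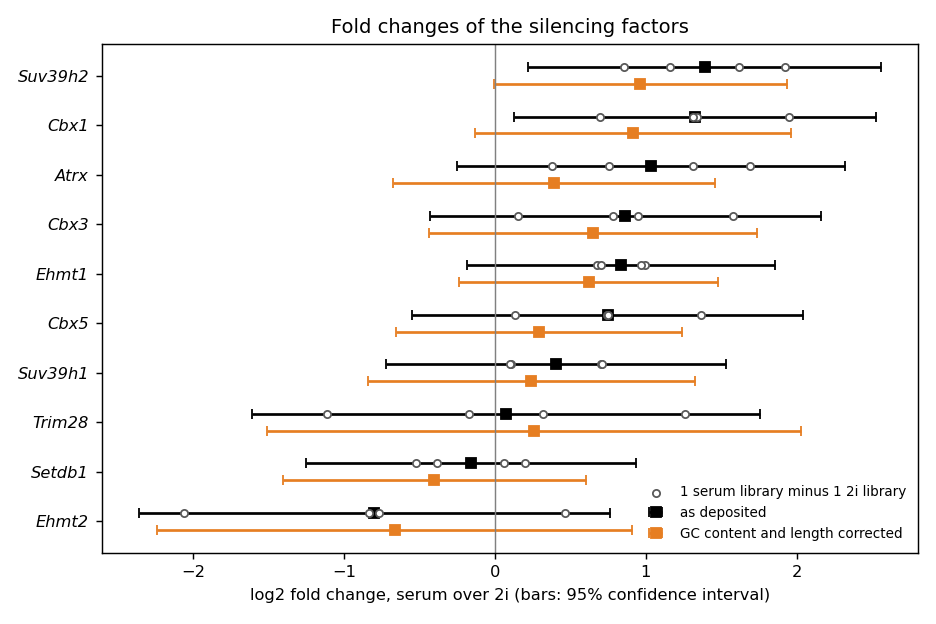
Log2 fold changes of the 10 factors, serum over 2i, as deposited (black) and after a correction for GC content and length (orange), with 95% confidence intervals from limma. Open circles are the 4 differences between a serum and a 2i library. For 7 genes all 4 circles lie to the right of 0, and the intervals of Suv39h2 and Cbx1 exclude 0 before the correction and include it after.

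How large the serum excess is depends on the library it is read from. The median difference over the 10 factors was 0.50 (log2) between serum replicate 1 and 2i replicate 1, 0.54 between serum replicate 1 and 2i replicate 2, 0.97 between the replicate 2 libraries and 1.11 between serum replicate 2 and 2i replicate 1. For 9 of the 10 factors serum replicate 2 was higher than serum replicate 1, by a median of 0.69, and 6 of the 10 reached their highest value there. The median fold change of the 10 was 0.45 with serum replicate 2 left out and 1.02 with serum replicate 1 left out. The tested genes whose pattern over the 4 libraries was nearest to the mean pattern of the 10 factors, by Euclidean distance of centred log2 values, were Mcph1 (distance 0.0262), Birc6 (0.0311) and Moap1 (0.0395). Mcph1, which acts in chromosome condensation, had 964 and 1458 normalized counts in serum, against 790.0 and 806 in 2i. Its high serum replicate 2 follows from its being chosen by this pattern.

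The fold changes of the factors went with the base composition of their transcripts. GC content of the exons ran from 38.7% for Atrx and 43.04% to 43.3% for Cbx5, Suv39h2 and Cbx1 up to 57.3% for Trim28 and 60.3% for Ehmt2. The 4 factors poorest in GC had log2 fold changes of 0.75 to 1.39, and Ehmt2, the richest, had the lowest. Over the 10 factors Pearson's r between log2 fold change and GC content was -0.83 and Spearman's rho -0.73, and over the 12953 tested genes with a sequence r was -0.22 and rho -0.31. These are descriptions across genes that share the same 4 libraries. After a smooth correction for GC content and length in each library, the log2 fold change was 0.96 for Suv39h2, 0.91 for Cbx1, 0.65 for Cbx3, 0.62 for Ehmt1, 0.39 for Atrx, 0.29 for Cbx5, 0.26 for Trim28, 0.24 for Suv39h1, -0.40 for Setdb1 and -0.66 for Ehmt2. Then 8 factors were above 0 (47.3% of all genes), the median over the 10 was 0.34 (-0.05 over all genes), the serum libraries lay above both 2i libraries for 5 factors (18.0% of all genes), namely Suv39h2, Ehmt1, Cbx1, Cbx3 and Cbx5, and 0 of 10 had an unadjusted p-value under 0.05 (2.7% of all genes). A fold change of 0.96 for Suv39h2 then had a standard error of 0.38 (adjusted p = 0.779 by limma). The correction took GC content and length together, so its effect cannot be divided between them. Atrx (15190 exon bases) and Cbx5 (9006), both poor in GC, were also the longest of the 10. The part of base composition in the differences was not tested.

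**Figure D3:**
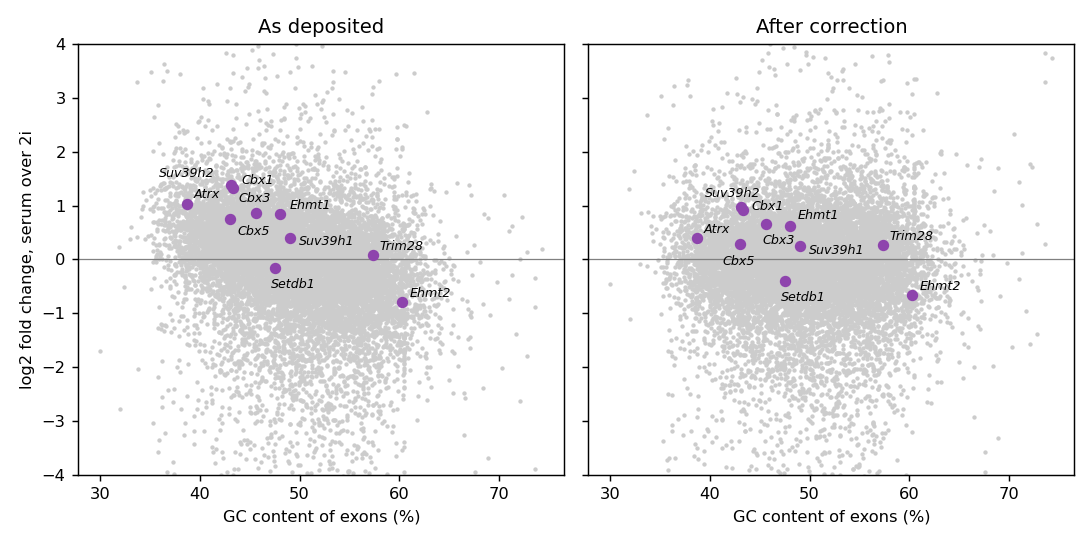
Log2 fold change, serum over 2i, against the GC content of the exons, as deposited (left) and after correction for GC content and length (right). Grey points are the tested genes and purple points the 10 factors, and 208 genes beyond 4 on either side of 0 in a panel are outside the axis. The left cloud falls from left to right and the right one is level, and Atrx moves from 1.03 to 0.39 while Ehmt2 stays lowest of the 10 in both panels.

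Levels were compared between genes per kilobase of exon, as the mean of normalized counts per kilobase over the 4 libraries. Trim28 was at the top with 3122, followed by Cbx3 (1915), Cbx5 (921), Cbx1 (858), Atrx (372), Setdb1 (346), Ehmt2 (329.7), Suv39h2 (118), Ehmt1 (117) and Suv39h1 (74.3). Over the 4 libraries pooled, the values of each gene overlapped with those of its neighbour in this order. Within serum and within 2i taken separately, Cbx3 was apart from Cbx5, Cbx1 from Atrx and Ehmt1 from Suv39h1, whereas Cbx5 and Cbx1, Setdb1 and Ehmt2, and Suv39h2 and Ehmt1 overlapped in both conditions. The other neighbours were apart in 1 condition alone: Trim28 and Cbx3 in 2i, Atrx and Setdb1 in serum, and Ehmt2 and Suv39h2 in 2i. Not divided by length, the mean normalized counts of all 10 were above the median of the 14533 genes, between the percentiles 55.0 (Suv39h1) and 99.0 (Trim28).

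The genes that work with these factors were taken from 6 lists of 55 genes, of which 47 had a row and were tested. Of the 47, 33 had a log2 fold change above 0 (50.3% of all genes), 17 had both serum values above both 2i values (20.5% of all genes) and 9 had both below (19.4%). After the correction for GC content and length, 26 of the 47 were above 0 (47.3% of all genes). As deposited, 30 of the 47 had a higher mean in serum. The minimum mean of 50 was reached in 2i alone by 7 of the 47, which fixed or favoured their direction. Of the 40 that reached it in both groups, 33 had a fold change above 0 (54.1% of the 11255 genes that did so), 17 had both serum values above both 2i values (21.9%) and 3 had both below (15.9%). Again 0 of 47 passed the adjusted threshold in limma, where the lowest adjusted p-value was 0.753, with 2 genes at an unadjusted p-value under 0.05 on the serum side (2.97% of all genes) and 2 on the 2i side (3.0%). The lists are described by their counts and medians, beside the median of 0.0047 over all genes.

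The HUSH complex, which spreads H3K9 trimethylation with Setdb1, was the shortest of the 6 lists. It was the only one in which each tested gene was higher in both serum libraries than in both 2i libraries (20.5% of all genes). Its 4 genes were Fam208a, Mphosph8, Pphln1 and Morc2a, with a median log2 fold change of 0.70. Mphosph8, its reader of the mark, had 1642 and 2157 normalized counts in serum, against 1193 and 805 in 2i (log2 fold change 0.94, standard error 0.46). Fam208a, its scaffold, had 2173 and 4634 in serum, against 1826 and 2146 in 2i, where the lower serum value barely exceeded the higher 2i value. The median of the 4 was 0.32 once GC content and length were corrected for, and Fam208a was then at 0.08.

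The partners of HP1, Trim28 and Atrx had log2 fold changes above 0 for 10 of 10 genes as deposited (50.3% of all genes). After correction 8 of 10 were above 0 (47.3% of all genes). The median was 0.58 (0.33 after correction), and 6 genes were higher in both serum libraries (20.5% of all genes). Of the other 4, Chaf1b was at 0.0036 (-0.02 after correction), Trim24 turned from 0.28 to -0.09, and Adnp had a lower mean in serum (232) than in 2i (358), with 19.2% of its 43-base runs its own. Hells, a remodeller needed for DNA methylation of repeats, had 5765 and 15823 normalized counts in serum, against 3864 and 4799 in 2i, with serum replicate 2 far above the other 3 libraries (log2 fold change 1.15, standard error 0.62, and 0.42 without that library). Chaf1a, the large subunit of the CAF-1 histone chaperone, had 847 and 1496 in serum, against 479 and 709 in 2i (0.95, standard error 0.50). Daxx, the H3.3 chaperone that binds Atrx, had 803 and 1023 in serum, against 459 and 731 in 2i (0.64, standard error 0.47). None of these 3 passed the test, with adjusted p-values of 0.753 for Hells and Chaf1a and 0.763 for Daxx.

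Of the 7 KRAB zinc finger genes, 6 had a fold change above 0 (50.3% of all genes), and 5 did after correction (47.3%). Their median was 0.65, and 0.12 after correction. Both serum values lay above both 2i values for 2 of the 7 (20.5% of all genes). The mean was higher in serum for 5, and the sign turned for 3 when 1 of the libraries was left out. Zfp57, which keeps imprinted regions methylated through Trim28, had 2932 and 4462 normalized counts in serum, against 2531 and 3604 in 2i, which overlap. Zfp568, a repressor of a placental Igf2 transcript, had 2733 and 4168 in serum, against 2340 and 1982 in 2i, which do not (log2 fold change 0.65, standard error 0.46). Of the 9 partners of the methyltransferases that were tested, 7 were above 0 with a median of 0.23, which became 4 of 9 with a median of -0.06 after correction. Wiz, a zinc finger protein that holds the Ehmt1 and Ehmt2 dimer together, had 9348 and 7032 normalized counts in serum, against 3539 and 1049 in 2i, both serum values being well above both 2i values (log2 fold change 2.07, standard error 0.67, adjusted p = 0.753 by limma). With 2i replicate 2 left out Wiz stood at 1.20, and with 2i replicate 1 left out at 2.95. Of its 43-base runs 76.7% were its own. Zfp644, which binds the same dimer, had 1158 and 1441 in serum, against 608 and 777 in 2i (0.91, standard error 0.43).

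The enzymes that remove H3K9 methylation were spread in both directions: of 10 tested, 5 were above and 5 below 0, with a median of 0.0041. Jmjd1c, a relative of the Kdm3 demethylases, had 2279 and 3648 normalized counts in serum, against 1170.0 and 723 in 2i (log2 fold change 1.65, standard error 0.50, adjusted p = 0.753 by limma). Kdm4b, a demethylase of the trimethylated form, was on the other side, with 191 and 180 in serum, against 910 and 519 in 2i (-1.89, standard error 0.50, adjusted p = 0.753 by limma), and its relative Kdm4c had 1453 and 2277 in serum, against 945 and 1124 in 2i (0.82, standard error 0.46). The 3 genes did not overlap between the groups. Over the list, 2 of 10 had both serum values above both 2i values (20.5% of all genes). Another 2 had both below (19.4%), Kdm4b and Kdm4a, the latter with 1496 and 1141 in serum, against 1804 and 1918 in 2i. No gene of the list passed the adjusted threshold in limma.

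Genes known to be held silent by these factors in ESCs were mostly scarce. Of 13 listed, 7 had a row, and 6 of the 7 had both serum values below both 2i values (19.4% of all genes). The median log2 fold change was -1.95 (-2.25 after correction). Only the 2i mean reached the minimum of 50 for 5 of the 7 (Zscan4c, Zscan4d, Zscan4f, Magea5 and Magea8), so that the minimum itself fixed their direction and neither the count nor the median of this list can be read as a result. Dazl, a germline gene, passed in both groups, with 487 and 147 normalized counts in serum, against 1148 and 1773 in 2i (-2.41, standard error 0.66, adjusted p = 0.753 by limma), and was at -1.55 without serum replicate 2 and -3.27 without serum replicate 1. The 2-cell genes were lower still: Zscan4f had 23.0 and 59.3 in serum, against 214 and 98.9 in 2i, Zscan4d 20.0 and 31.1 against 85.1 and 40.7, and Zscan4c 20.0 and 41.8 against 56.1 and 52.4. The 3 Zscan4 genes are near-identical, with 9.56% to 49.0% of their 43-base runs their own, and cannot be counted as independent. Magea8 had 0 and 1.94 normalized counts in serum, which is 0 and 2 reads, and 32.2 and 132 in 2i, so no fold is given, and without it the median of the other 6 was -1.58. Magea5, like Magea8 an X-linked germline gene, had 13.0 and 2.92 in serum, against 23.9 and 115 in 2i. Mael, a germline gene of the piRNA pathway, overlapped with 41.0 and 115 in serum, against 169 and 18.4 in 2i. None of the 7 passed the adjusted threshold in limma.

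**Figure D4:**
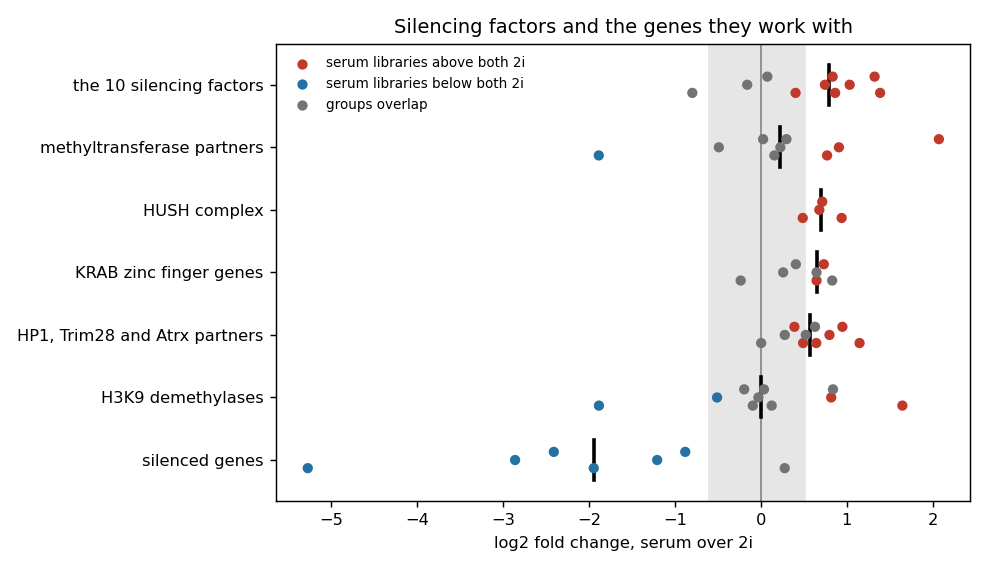
Log2 fold changes, serum over 2i, of the 10 factors and the 6 lists. Each point is a gene (red, both serum libraries above both 2i libraries; blue, both below; grey, overlapping), black bars are medians, and the grey band runs from the lower to the upper quartile of all tested genes (-0.60 to 0.51). The medians of the factors (0.79), the HUSH complex (0.70), the KRAB zinc finger genes (0.65) and the partners (0.58) lie to the right of the band, and that of the silenced genes (-1.95), of which 5 passed the minimum in 2i alone, to the left.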

How the data were processed

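RNA of sorted ESCs had been depleted of ribosomal RNA, primed at random and sequenced as single reads of 43 bases. Per the labels the authors aligned with Bowtie to mm9, and per the study's methods they used MMSeq for quantification and kept genes with at least 50 reads in either condition. The signal deposited is a normalized count (a gene's reads over the library's DESeq2 size factor), and division by 1 step per library turned 100% of them into whole reads (within 0.1). All 13005 genes that averaged 50 or more in serum or in 2i entered a limma fit (version 3.58.1, under R 4.3.3) of log2(value + 1) with a variance trend, and those called had an adjusted p-value under 0.05 plus a log2 fold change beyond 1. Fold changes on this scale understate those of low genes. With 2 libraries against 2, an exact permutation test cannot give p below 0.333 and was not used. Since the values are scaled, edgeR 4.0.16 and DESeq2 1.42.0 on whole reads were alternatives. GC content and exon length (GENCODE vM1, mm9) were corrected by a smooth fit in each library (mgcv 1.9.3). A simulation of the 13005 genes, 200 of them changed, tested the fit. Symbols were matched through GENCODE vM1, with Fam208a found under an older symbol. Atf7ip, Zfp708 and Jmjd1c had 2 rows, and the row with the higher mean was used. The factors and lists were chosen with earlier results of these data known. The genes named are the 10 factors, list genes and the 3 genes nearest in pattern.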

Additional observations from a re-analysis of the deposited data

How the results depend on the processing

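None of the 10 factors was called under any of the 22 alternatives run (other scalings, filters, pseudocounts and tools, the replicate number as a block, the correction for GC content and length, and leaving out each library). Their lowest adjusted p-value was 0.157 in DESeq2. Over all genes, 0 were called as higher in serum and 2 as higher in 2i, and these counts became 73 and 178 in DESeq2, 0 and 0 in edgeR and with protein-coding genes alone, 0 and 1 after the correction and without the trend, and 0 and 4 with a mean of at least 200. Leaving out a library gave 0 to 0 in either direction. The replicate numbers are shared by the groups but nothing says what they mark, and the differences between replicates correlated across genes (r = 0.480). With the replicate block 44 and 159 genes were called (2 and 11 with the correction as well), the lowest adjusted p-value of a factor was 0.308, and Dazl (-2.41) and Wiz (2.07) passed, so that 2 list genes were called, as were 2 in DESeq2 (Kdm4b at -1.98, and Magea8, which has 0 and 2 serum reads). All other calls among the factors and named list genes were as without the block.

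The median of the 10 factors went from 0.79 to 0.34 with the correction, with and without the block, and ran from 0.45 to 1.02 as libraries were left out. The correction without each library, added after the data were seen, gave 0.53 without serum replicate 1, 0.35 without serum replicate 2, 0.44 without 2i replicate 1 and 0.61 without 2i replicate 2. Upper quartile scaling moved the median of all genes to -0.14 and a mean of at least 200 moved it to 0.12. Among the factors, signs turned for Trim28 (-0.039 in DESeq2, -0.052 in edgeR, -0.071 under upper quartile scaling, -0.64 to 0.79 by library left out, and, corrected, -0.38 without 2i replicate 1 and -0.22 without serum replicate 2), Setdb1 (-0.45 to 0.13 by library left out), and, corrected, Suv39h1 (-0.074 without 2i replicate 2) and Atrx (-0.0069 without 2i replicate 1). Of the 47 list genes, 9 turned with the correction and 17 when 1 of the libraries was left out. Signs of named list genes turned for Mael (-0.32 in DESeq2, -0.34 in edgeR, -1.29 to 1.84 by library left out), Zfp57 (-0.043 to 0.56 by library left out), Adnp (-0.66 in DESeq2, -0.67 in edgeR, -1.82 to 3.08 by library left out), Trim24 (-0.094 with the correction, -0.031 to 0.59 by library left out) and Chaf1b, which was near 0 throughout (-0.018 with the correction, -0.14 under upper quartile scaling and quantile normalization, -0.032 with TMM, -0.0019 with protein-coding genes alone, -0.027 in edgeR, -0.017 in DESeq2, and -0.17 to 0.17 by library left out). Cbx3 summed with its copies, also added later, stayed at 0.87.

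List medians after the correction, with and without the block, were 0.33 for the HP1, Trim28 and Atrx partners, 0.32 for HUSH, 0.12 for KRAB zinc finger genes, -0.057 for the methyltransferase partners and -0.12 for demethylases. The minimum of 50 in both groups, added later, left 40 list genes, 33 of them above 0. The KRAB median was 0.42 in DESeq2 and 0.41 in edgeR, and the demethylase median -0.032 with TMM, -0.038 with quantile normalization, -0.14 with upper quartile scaling and 0.036 with a mean of at least 200. As libraries were left out, medians ran from -0.11 to 0.65 for the methyltransferase partners, 0.47 to 1.07 for HUSH, 0.25 to 0.77 for KRAB zinc finger genes, 0.34 to 0.65 for the HP1, Trim28 and Atrx partners, -0.0052 to 0.17 for demethylases and -1.75 to -1.28 for silenced genes. At the depth of these libraries, the simulation called 100% of 4-fold changes at a coefficient of variation of 0.1 and 0% at 0.668. An effect of depth itself was not tested.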
